A study of Mus musculus with 17 samples.

Results

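Microglia genes are the transcripts by which microglia, the resident macrophages of the brain, are recognised in tissue RNA, and 31 of them were chosen by name, as textbook markers, from the 55471 genes of the count table. All 31 were found, and each had counts in every one of the 17 hippocampal libraries, from 8 reads of Spi1 to 1342 reads of Csf1r. The mice were CBP-ifKOs, which carry floxed Crebbp alleles and the Camk2a-creERT2 transgene, and control littermates that lack the creERT2 according to the study's methods, although the strain label of the controls names the same line. Both genotypes were C57BL/6 mice (C57BL/6J by the methods) of 3 to 6 months, and both received 5 doses of tamoxifen, which switches the recombinase on. The Camk2a promoter confines recombination to excitatory neurons of the forebrain, so the microglia of a CBP-ifKO keep an intact Crebbp gene, and a truncated CBP product can remain in the recombined neurons.

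Pentylenetetrazole (PTZ) is a blocker of inhibitory GABA-A receptors that provokes seizures, and kindling is its repeated injection, here at 45 mg/kg on alternate days. The paper reports that the repeated dose brought on seizures in all controls, while no CBP-ifKO reached the stage of progressive seizures. Both genotypes are called kindled here for the injections given, and their seizure history differed. Mice without kindling that were given saline form the Sal group. The PTZ0 group was kindled and given saline a week later, and the PTZ45 group was kindled and given a last dose of 45 mg/kg a week later. Hippocampi were taken 45 min after that injection. The methods give male sex and 1 animal per library for the saline-treated mice, and state neither for the mice kindled with PTZ. There were 3 libraries per group except Control PTZ45 with 2. Libraries held 5831992 to 18735643 gene counts, of which the 31 genes took 2674 to 9168 counts per library, or 0.0439% to 0.0561%. The precision of each value below is therefore set by how few reads each gene has and by the spread between 2 or 3 libraries.

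Microglia depend throughout life on the receptor Csf1r and its ligands Csf1 and Il34, watch their surroundings with purinergic and chemokine receptors such as P2ry12 and Cx3cr1, and clear debris and synapses with the help of complement, Fc receptors and lysosomal proteases. Their identity rests on the transcription factors Spi1 (PU.1), Irf8 and Sall1. On activation they lower P2ry12, Tmem119 and other homeostatic receptors and raise lysosomal, antigen-presenting and inflammatory genes. In RNA from whole hippocampus, fewer microglia and less RNA per microglial cell cannot be told apart.

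The genotype labels fitted the targeted gene. Crebbp ranged from 1824 to 2429 normalized counts in the 8 control libraries and from 1061 to 1337 in the 9 CBP-ifKO libraries, in which cells other than excitatory neurons keep the gene. Esr1, part of which belongs to the creERT2 construct, ranged from 41.0 to 77.8 in controls and from 703 to 941 in CBP-ifKOs. Fos, an activity-induced gene, marked the last injection: it ranged from 2483 to 2915 in Control PTZ45, from 163 to 288 in CBP-ifKO PTZ45, and no higher than 62.4 in the other libraries. Sequencing lanes in the labels go with the groups. Control Sal and Control PTZ0 shared lane 3, CBP-ifKO Sal and Control PTZ45 shared lane 4, and CBP-ifKO PTZ0 and CBP-ifKO PTZ45 shared lane 5. Only kindling in controls and the last injection in kindled CBP-ifKOs were therefore compared within a lane. In the other comparisons of 2 groups and in the interactions lane and group cannot be told apart. In genotype over all treatments lane 4 held both genotypes, but as CBP-ifKO Sal and Control PTZ45, which differ in treatment too. A fit with lane as a term there tells lane from genotype only if treatment acts alike in both genotypes. Fos did not meet this condition, with a genotype by PTZ45 interaction of -3.18 (SE 0.52).

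The sequences just upstream of 4 members are shown because the results turn on these genes: C1qb and C1qc, neighbours in the C1q cluster on chromosome 4, varied together most closely of all pairs of members, and Irf8 and Olfml3 were the members whose level passed the test between genotypes. Sequences are from RefSeq windows on GRCm38.p6, read 5′ to 3′ on the strand of the gene, and capitals mark GAGGAA, the core bound by PU.1 and related ETS factors, in either orientation (TTCCTC is the same core on the other strand). The C1qb window is chr4:136886201-136886450 on the minus strand. For C1qc only the bases outside the annotated gene are given, chr4:136893066-136893164 on the minus strand. The Irf8 window is chr8:120736108-120736357 on the plus strand and that of Olfml3 is chr3:103738002-103738251 on the minus strand.
C1qb: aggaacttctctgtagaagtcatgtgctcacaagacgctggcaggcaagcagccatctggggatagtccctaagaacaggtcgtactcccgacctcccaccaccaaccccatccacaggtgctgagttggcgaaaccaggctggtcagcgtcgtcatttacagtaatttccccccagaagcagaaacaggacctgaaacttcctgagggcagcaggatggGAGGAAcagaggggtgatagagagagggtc
C1qc: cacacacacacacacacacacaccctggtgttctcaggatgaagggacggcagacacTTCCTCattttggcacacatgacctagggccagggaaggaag
Irf8: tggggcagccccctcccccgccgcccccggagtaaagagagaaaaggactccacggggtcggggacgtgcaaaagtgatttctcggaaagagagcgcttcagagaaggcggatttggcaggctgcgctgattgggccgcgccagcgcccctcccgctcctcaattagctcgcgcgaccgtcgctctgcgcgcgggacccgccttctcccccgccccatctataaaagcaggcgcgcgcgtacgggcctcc
Olfml3: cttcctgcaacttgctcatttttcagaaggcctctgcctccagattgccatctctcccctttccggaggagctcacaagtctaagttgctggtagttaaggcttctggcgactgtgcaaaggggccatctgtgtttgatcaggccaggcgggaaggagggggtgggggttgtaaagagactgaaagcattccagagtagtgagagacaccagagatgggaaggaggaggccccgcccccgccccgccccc
GAGGAA starts 30 bases from the downstream end of the C1qb stretch, and the opposite orientation starts 42 bases from that of C1qc. The letters do not occur in the Irf8 and Olfml3 stretches. RefSeq windows were matched for 24 of the 31 genes (29 windows), and not for Selplg, Spi1, Gpr34, C1qa, Tmem119, Tyrobp and Csf1r. Over the 250 bases before the start, searched on both strands, GAGGAA occurred in 15 of the 29 member windows, which belong to 14 genes, and in 23.3% of all 32851 windows of that length. The longer GAGGAAGT, which contains the first motif, occurred in the windows of C1qc and Inpp5d alone among the matched members and in 2.44% of all windows. The ETS and interferon-regulatory composite element, GGAA and GAAA with 2 bases between them, occurred in 0 of the 29 member windows and in 2.3% of all windows. These are counts of letters and not of bound sites.

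Exons of 4 members overlap those of another annotated gene: Itgam shares exon sequence with Gm49368 on the same strand, and Csf1r, Cx3cr1 and P2ry12 with Hmgxb3, Gm33858 and Med12l on the opposite strand. Whether strand was used in counting is not given in the sources used here, so reads of these pairs could not be assigned with certainty. Levels differed widely among the members. Expressed as normalized counts per kilobase of exon, the lysosomal protease Ctss had the highest mean level, 474, followed by the complement chains C1qa at 291 and C1qb at 227, the purinergic receptor P2ry12 at 206, the signalling adaptor Tyrobp at 159, Csf1r at 151 and C1qc at 111. The chemokine receptor Cx3cr1 stood at 98.0 per kilobase and the homeostatic marker Tmem119 at 63.7. At the low end were Irf8 at 5.93, Spi1 at 5.66 and Ptprc, the leukocyte phosphatase CD45, at 5.05. Ranges over the 17 libraries overlapped between every pair of neighbours in this order except Itgam (11.9 per kilobase) and Irf8. The coefficient of variation over the 17 libraries was lowest for Mpeg1, a pore-forming protein of the phagosome, at 7.39%, and highest for Spi1 at 37.5%, whose mean was 15.3 normalized counts.

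Of the 6 members with the highest level per kilobase, 0 passed the test in any of the 12 comparisons made, which called from 0% to 19.3% of all genes. Ctss lay at 704, 650 and 679 normalized counts in Control Sal, at 667, 640 and 682 in Control PTZ0 and at 574 and 721 in Control PTZ45. In CBP-ifKOs Ctss lay at 568, 494 and 734 in Sal, at 590.5, 621 and 595 in PTZ0 and at 706, 593 and 725 in PTZ45. Ctss was thus highest and lowest within the CBP-ifKOs, and the 2 genotypes overlapped. P2ry12, which senses ADP and guides microglial processes to sites of damage, lay at 587, 560 and 525 in Control Sal, 540, 518 and 542 in Control PTZ0 and 496 and 592 in Control PTZ45. In CBP-ifKOs P2ry12 lay at 411, 442 and 558 in Sal, 441, 599 and 473 in PTZ0 and 589, 471 and 592 in PTZ45. The lowest 3 P2ry12 values were CBP-ifKO libraries, 2 of Sal and 1 of PTZ0, and the highest was a CBP-ifKO PTZ0 library.

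Csf1r, the receptor on which microglial survival depends, was among the steadiest members. It lay at 887, 941 and 940 normalized counts in Control Sal, 961, 925 and 939 in Control PTZ0 and 823 and 837 in Control PTZ45. In CBP-ifKOs Csf1r lay at 727, 793 and 992 in Sal, 879, 877 and 774 in PTZ0 and 867, 807 and 896 in PTZ45. Both Control PTZ45 libraries were below the other 6 control libraries, and CBP-ifKO Sal held both the highest and the lowest value of the series. Tyrobp (DAP12), the adaptor through which Trem2 signals, lay at 141, 109.6 and 110.3 in Control Sal, 128, 122 and 112 in Control PTZ0, and 103 and 88.0 in Control PTZ45. In CBP-ifKOs Tyrobp lay at 68.5, 87.2 and 118 in Sal, 102, 108 and 80.4 in PTZ0, and 93.6, 110.0 and 119 in PTZ45. Its ranges in the 2 genotypes overlapped.

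The 3 C1q chains form the recognition molecule of the classical complement pathway and in brain come mainly from microglia. Their genes lie within 18.7 kb on chromosome 4 (GRCm38, 136880129 to 136898803, all on the minus strand). C1qa lay at 379, 328 and 328 normalized counts in Control Sal, 352, 305 and 327 in Control PTZ0 and 261 and 311 in Control PTZ45. In CBP-ifKOs C1qa lay at 222, 301 and 363 in Sal, 282, 285 and 288 in PTZ0 and 308, 182 and 329 in PTZ45. C1qb lay at 281, 319 and 232 in Control Sal, 257, 295 and 264 in Control PTZ0 and 228 and 239 in Control PTZ45. In CBP-ifKOs C1qb lay at 174, 222 and 310 in Sal, 209, 272 and 212 in PTZ0 and 231, 187 and 272 in PTZ45. Of these 9 values 5 were below every control and 4 lay among the controls. CBP-ifKO Sal replicate 1 and CBP-ifKO PTZ45 replicate 2 were the lowest libraries for both C1qa and C1qb. Across the 17 libraries C1qb and C1qc correlated with r = 0.913 and rho = 0.917 (permutation p = 1e-05 for both, the smallest that 100000 permutations can give, adjusted p = 9e-05 over the 9 relations computed). Without the 2 libraries farthest from the median r was 0.915, within lane 3 it was 0.939 and within lane 5 it was 0.905, over 6 libraries each. C1qa correlated with C1qb with r = 0.768 and rho = 0.745 (permutation p = 0.00014 and 0.0009, adjusted p = 0.000315 and 0.0027), and r was 0.589 without the 2 farthest libraries. That relation did not hold within lane 3, where r was -0.151 over 6 libraries, against 0.733 over the 6 of lane 5. C1qa with C1qc gave r = 0.772 and rho = 0.681 (permutation p = 0.00013 and 0.00323, adjusted p = 0.000315 and 0.00484), 0.619 without the 2 farthest libraries, 0.0631 in lane 3 and 0.718 in lane 5. Lane 4 held 5 libraries, fewer than the 6 set as the least for a correlation, and is not given. After the group means were taken off r was 0.965 for C1qb with C1qc, 0.702 for C1qa with C1qb and 0.678 for C1qa with C1qc. Over all 465 pairs of members the median r across libraries was 0.264, with 359 pairs above 0 and a range from -0.734 to 0.913. Sall1 and Cd33 were the members with a median r below 0 with the others (-0.33 and -0.12). These coefficients over pairs share libraries and depth and are given as a description.

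**Figure D1:**
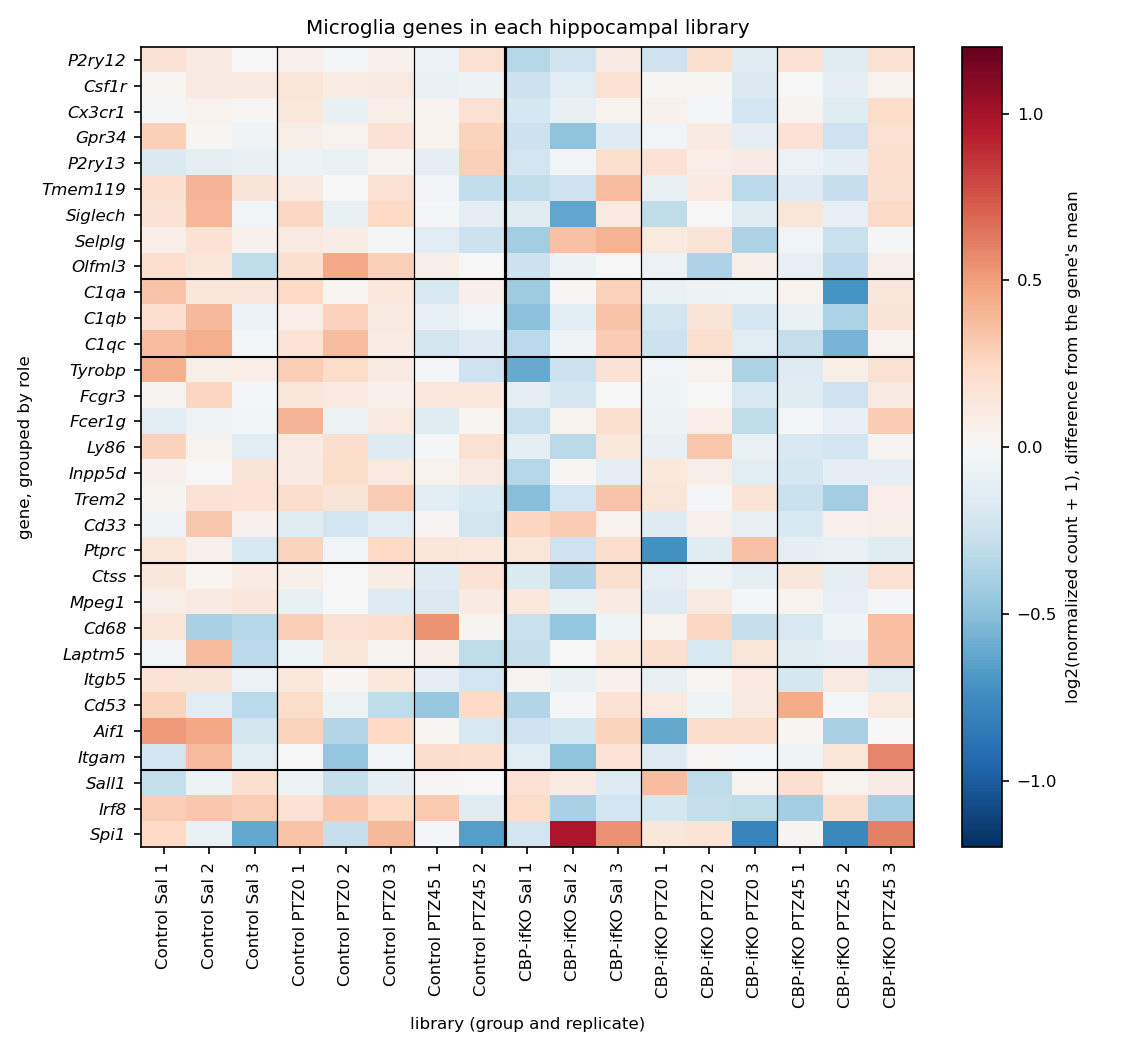
Each cell gives log2(normalized count + 1) of 1 of the 31 microglia genes (rows, grouped by role with lines between groups) in 1 of the 17 libraries (columns, controls left of the heavy line) as the difference from that gene's mean over the libraries. Many genes of a library shift together, CBP-ifKO Sal replicate 1 being pale to dark blue for most genes, and Spi1, the gene with the fewest reads, varies most.

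The question put to the genotype comparison was whether loss of CBP in excitatory neurons goes with a change in these genes in the surrounding microglia. Over all treatments 2 of the 31 members passed the DESeq2 test, both lower in CBP-ifKOs, and 0 were higher, while 19.3% of the 18682 genes tested passed it, 11.5% lower and 7.76% higher. The share of members called was thus below that of all genes. Irf8, an interferon-regulatory transcription factor needed for microglial development and reactivity (chromosome 8, 120736358 to 120756694, plus strand), fell by 0.40 on the log2 scale (SE 0.14, adjusted p = 0.0294). Olfml3, a secreted olfactomedin-like protein of homeostatic microglia (chromosome 3, 103722222 to 103738001, minus strand), fell by 0.24 (SE 0.09, adjusted p = 0.0458). No member's values separated the genotypes fully, against 2.99% of all genes tested.

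Irf8 lay at 50.6, 51.7 and 50.6 normalized counts in Control Sal, at 46.5, 51.5 and 48.6 in Control PTZ0 and at 51.3 and 36.9 in Control PTZ45. In CBP-ifKOs Irf8 lay at 48.0, 31.1 and 34.7 in Sal, at 35.3, 33.4 and 33.1 in PTZ0 and at 30.5, 47.0 and 30.7 in PTZ45. Of the 9 CBP-ifKO libraries 7 were below the lowest control, and the other 2 lay among the controls. Within treatments the difference in Irf8 was -0.39 (SE 0.31) in Sal, -0.53 (SE 0.30) in PTZ0 and -0.29 (SE 0.40) in PTZ45, with adjusted p of 0.769 in Sal and 0.905 in PTZ45 by DESeq2 and none given in PTZ0, where its low mean count left it out of the adjustment (unadjusted p = 0.0797). The Irf8 call over all treatments was lost when any 1 of 6 libraries was left out, with adjusted p = 0.0502 without CBP-ifKO Sal replicate 2, 0.063 without CBP-ifKO Sal replicate 3, 0.0593 without Control PTZ0 replicate 2, 0.0519 without Control PTZ0 replicate 3, 0.0593 without CBP-ifKO PTZ0 replicate 3 and 0.083 without Control PTZ45 replicate 1. With lane as a term in the fit the Irf8 difference was -0.14 (DESeq2 adjusted p = 1), and with a correction for GC content it was -0.36 (adjusted p = 0.0546).

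Olfml3 lay at 208, 199 and 146 normalized counts in Control Sal, at 207, 248 and 221 in Control PTZ0 and at 190.1 and 180.4 in Control PTZ45. In CBP-ifKOs Olfml3 lay at 152, 174 and 182 in Sal, at 173, 140.3 and 189 in PTZ0 and at 169, 146 and 191.0 in PTZ45. The genotypes did not overlap in PTZ0, where the difference was -0.42 (SE 0.16, DESeq2 adjusted p = 0.0816), and overlapped in Sal (-0.13, SE 0.18). The call on Olfml3 over all treatments was kept in 5 of the 17 fits that left out 1 library (those that dropped replicate 3 of Control Sal, replicates 2 or 3 of CBP-ifKO Sal, replicate 2 of Control PTZ45 or replicate 3 of CBP-ifKO PTZ45), with adjusted p from 0.00632 to 0.119 over the 17. With lane as a term the difference in Olfml3 turned to 0.15 (adjusted p = 1). In that fit 131 of 16404 genes were called. Olfml3 also missed the threshold with the edgeR test (adjusted p = 0.0599), with the GC correction (0.0581) and without the 5 libraries rich in the choroid plexus transcript Ttr (-0.17, adjusted p = 0.383).

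Among the members that did not pass the test, Inpp5d (SHIP1, a phosphatase that restrains signalling from immune receptors) came next, at -0.20 (SE 0.08, DESeq2 adjusted p = 0.0528), then Gpr34, a lysophosphatidylserine receptor, at -0.20 (SE 0.08, adjusted p = 0.0711). C1qc, at -0.21 (SE 0.10), and the Fc receptor Fcgr3, at -0.19 (SE 0.10), also had an unadjusted p under 0.05, so that 6 of 31 members did, all lower, against 29.9% of all genes. C1qc lay at 274, 287 and 209.7 normalized counts in Control Sal, 237, 274 and 225 in Control PTZ0 and 181 and 189 in Control PTZ45. In CBP-ifKOs C1qc lay at 168, 205 and 262 in Sal, 177, 242 and 193 in PTZ0 and 173, 143 and 217 in PTZ45, overlapping the controls. By role, 7 of the 9 homeostatic receptors and sensors had a log2 fold change below 0 (median -0.11). That class also holds the secreted Olfml3 and the selectin ligand Selplg. Below 0 too were 3 of 3 C1q chains (median -0.17) and 7 of 8 immunoreceptors and adaptors (median -0.13). So were 2 of 4 lysosomal genes (median -0.04), 2 of 4 adhesion and cytoskeletal genes (median -0.01) and 1 of 3 transcription factors. Together 22 of the 31 were below 0, with a median of -0.11, against 47.7% of all genes tested and a median of 0.01. The members' median was -0.02 with lane as a term, -0.03 without the 5 libraries rich in the choroid plexus transcript Ttr and -0.07 without CBP-ifKO Sal replicate 1. The 95% interval of the difference lay within a 2-fold change either way for all 31 members and within 1.5-fold for 29, so that differences of over 2-fold lay outside every interval. For Csf1r the interval ran from -0.21 to 0.02, for Cx3cr1 from -0.21 to 0.03 and for P2ry12 from -0.26 to 0.04.

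The members not given in every library are described by their ranges over the 8 control and 9 CBP-ifKO libraries. Cx3cr1, which receives the neuronal signal Cx3cl1, ranged from 413 to 499 in controls and from 376 to 514 in CBP-ifKOs in normalized counts. Tmem119, a surface marker of resident microglia, ranged from 118 to 193 in controls and from 116 to 188 in CBP-ifKOs. Trem2, a lipid receptor that signals through Tyrobp, ranged from 81.5 to 114 in controls and from 64.7 to 117 in CBP-ifKOs. In each of these the lowest value was a CBP-ifKO library and the ranges of the genotypes overlapped. Mpeg1 ranged from 218 to 269 in controls and from 220 to 267 in CBP-ifKOs, and Siglech, a sialic acid-binding receptor, ranged from 133 to 191 in controls and from 93.4 to 170 in CBP-ifKOs. Of the transcription factors, Sall1 ranged from 125 to 175 in controls and from 124 to 198 in CBP-ifKOs and Spi1 from 8.69 to 19 in controls and from 7.89 to 29.1 in CBP-ifKOs, so that both, with log2 fold changes of 0.13 and 0.18 for genotype over all treatments, lay on the opposite side of 0 from Irf8. Among receptors, P2ry13, a purinergic receptor, ranged from 171 to 237 in controls and from 165 to 223 in CBP-ifKOs, and Gpr34 from 169.96 to 213 and from 125 to 198. Selplg, a ligand of selectins, ranged from 130.4 to 176 in controls and from 117 to 208 in CBP-ifKOs, and Cd33, an inhibitory sialic acid-binding receptor, from 78.5 to 116 and from 81.0 to 114. Among immunoreceptors and their adaptors, Fcgr3 ranged from 87.7 to 106 in controls and from 74.0 to 95.5 in CBP-ifKOs, Fcer1g, the signalling chain of Fc receptors, from 30.95 to 45.6 and from 27.6 to 42.4, Inpp5d from 148 to 172 and from 117 to 162, Ly86 from 81.9 to 111 and from 72.6 to 115 and Ptprc from 79.6 to 109.7 and from 54.8 to 117. Of these, Ly86 and Ptprc held both their highest and their lowest value in CBP-ifKOs, while Fcgr3, Fcer1g and Inpp5d had their highest value in controls. The lysosomal genes Cd68 and Laptm5 ranged from 39.4 to 76.1 and from 98.5 to 160.1 in controls and from 37.4 to 67.2 and from 101 to 157 in CBP-ifKOs. Aif1 (Iba1), an actin-binding protein widely used to stain microglia, ranged from 34.0 to 62.3 in controls and from 28.002 to 52.5 in CBP-ifKOs, the tetraspanin Cd53 from 48.6 to 81.0 and from 52.5 to 91.5, and the integrin chains Itgam from 42.2 to 76.3 and from 41.5 to 88.4 and Itgb5 from 294 to 387 and from 299 to 375. The 2 genotypes overlapped for all of these members. The 25 members with an unadjusted p of at least 0.05 lay between -0.22 for Tyrobp and 0.18 for Spi1.

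**Figure D2:**
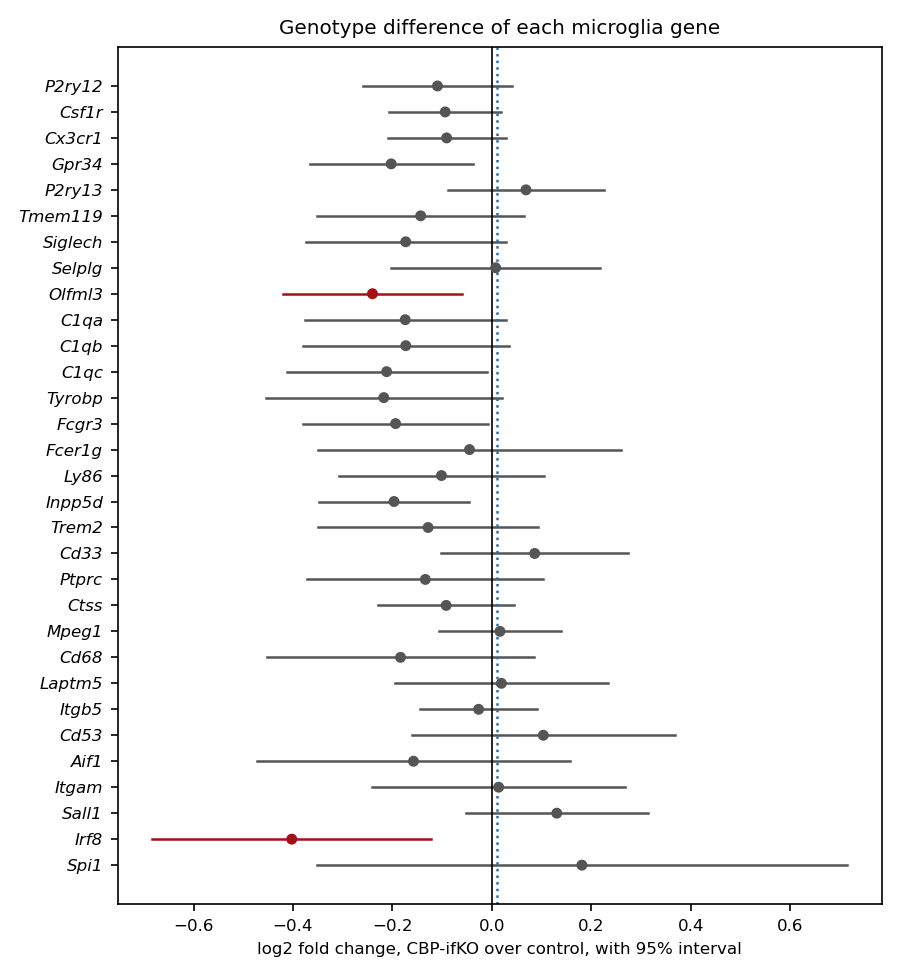
Points give the log2 fold change of each of the 31 microglia genes, CBP-ifKO over control, from 1 fit over all treatments (8 control and 9 CBP-ifKO libraries), with lines for the 95% interval. Irf8 at -0.40 and Olfml3 at -0.24 (red) passed the test, and the dotted line marks the median of all genes, 0.01.

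**Figure D3:**
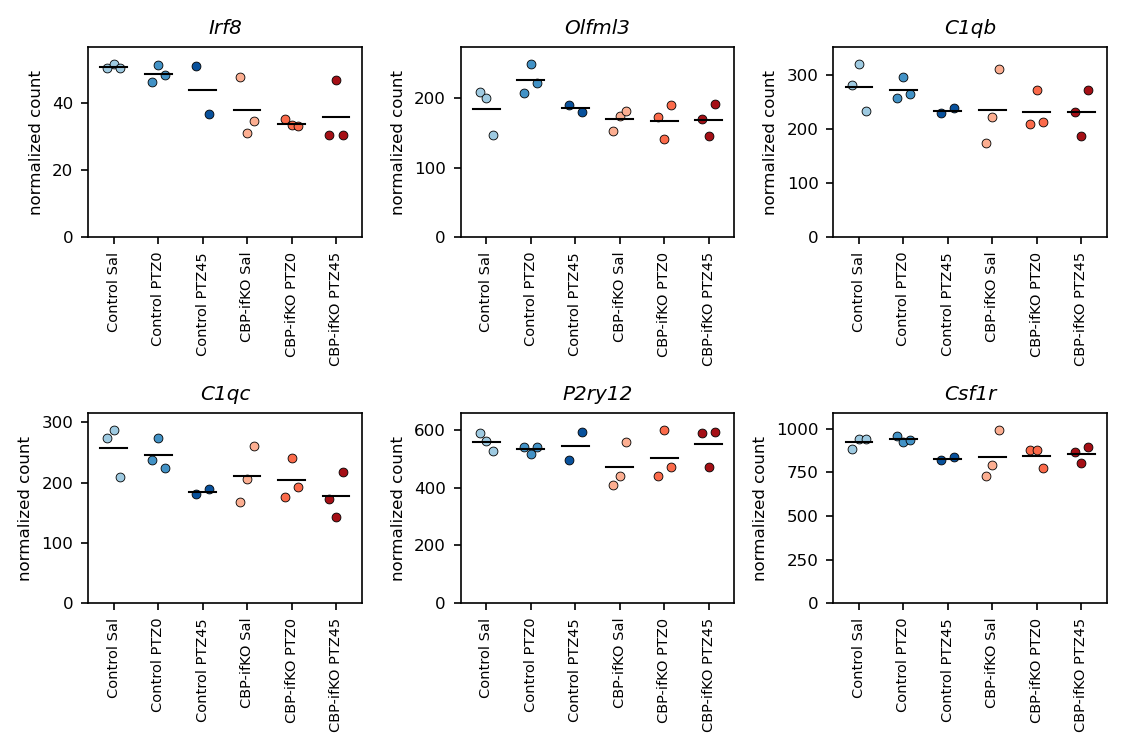
Normalized counts of 6 microglia genes in each library (points) with the group mean (bar), controls in blue and CBP-ifKOs in red, with the axis starting at 0. Of the 9 CBP-ifKO libraries 7 lie below every control for Irf8 while the ranges of the 2 genotypes, taken over all treatments, overlap for all 6 genes.

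Genes of other glia moved with the microglia genes from library to library. The mean of the 31 genes on the log2 scale, as a difference from the average library, ranged from -0.04 to 0.14 in controls and from -0.20 to 0.14 in CBP-ifKOs. The same mean over 6 astrocyte genes ranged from -0.03 to 0.10 in controls and from -0.19 to 0.14 in CBP-ifKOs, and over 6 oligodendrocyte genes from -0.22 to 0.17 and from -0.30 to 0.19. The microglial and astrocytic means correlated across the 17 libraries with r = 0.852 and rho = 0.782 (permutation p = 2e-05 and 0.00041, adjusted p = 9e-05 and 0.00184 over 9 relations). This relation remained without the 2 libraries farthest from the median (r = 0.791), within lane 3 (r = 0.951) and lane 5 (r = 0.933), and after the group means were taken off (r = 0.851). For oligodendrocyte genes r was 0.733 and rho 0.721 (permutation p = 0.00116 and 0.00162, adjusted p = 0.00209 and 0.00364). That r was 0.693 without the 2 farthest libraries, 0.416 in lane 3, 0.614 in lane 5 and 0.686 after the group means were taken off. Endothelial genes gave r = 0.227 (rho = 0.245), choroid plexus genes r = -0.455 (rho = -0.373) and excitatory neuron genes r = -0.261 (rho = -0.221), with adjusted permutation p for r of 0.377, 0.0869 and 0.359. For choroid plexus genes r was -0.188 without the 2 farthest libraries, 0.000742 in lane 3, -0.71 in lane 5 and -0.571 after the group means were taken off. For endothelial genes r was 0.506 without the 2 farthest libraries and -0.0784 after the group means were taken off, and for excitatory neuron genes it was -0.0205 and 0.193. The libraries with the lowest means of the 31 genes, CBP-ifKO Sal replicate 1 (-0.20) and CBP-ifKO PTZ45 replicate 2 (-0.18), had choroid plexus means of 4.02 and 3.43, among the 5 rich in Ttr. The others of those 5 were Control Sal replicate 2, Control PTZ0 replicate 2 and CBP-ifKO PTZ0 replicate 3. Their means of the 31 genes were 0.14, 0.03 and -0.11, with choroid plexus means of 2.01, 3.17 and 3.52. Over all treatments 3 of the 6 astrocyte genes were lower in CBP-ifKOs (Slc1a3, Gja1 and Aldoc, at -0.18, -0.11 and -0.24), against 11.5% of all genes, and 2 of the 5 excitatory neuron genes, Prox1 and Neurod2, were higher, at 0.26 and 0.29, against 7.76% of all genes. Of the 6 oligodendrocyte genes 0 were called, but 4 had an unadjusted p under 0.05, against 29.9% of all genes, and all 6 were below 0, with a median of -0.15. Of the endothelial genes Ly6c1 was lower (-0.29, DESeq2 adjusted p = 0.0286), and of the red blood cell genes Alas2 was higher (0.23, adjusted p = 0.00915). Within PTZ0, where 6.68% of all genes were called, the oligodendrocyte gene Cnp (-0.29, adjusted p = 0.00902) and the red blood cell gene Hbb-bs (-0.34, adjusted p = 0.0322) were lower. Other immune cells share many of these genes, among them the macrophages at the borders of the brain and blood leukocytes. Of the 10 border macrophage genes examined, 4 had counts high enough for an adjusted p over all treatments, and of these Stab1 was lower in CBP-ifKOs (-0.27, DESeq2 adjusted p = 0.00344) and 0 were higher, with Mrc1 at a mean of 84.9 normalized counts and Folr2 at 0 in 5 of the 17 libraries. The mean over border macrophage genes ranged from -0.24 to 0.63 in controls and from -0.50 to 0.41 in CBP-ifKOs. The 11 leukocyte genes were close to 0, with means from 0.0893 for the monocyte gene Ly6c2 to 6.87 for Ccr2, and Ly6c2 and the lymphocyte gene Nkg7 were at 0 in 15 of the 17 libraries. The part of these cell type differences in the genotype values of the microglia genes was not tested.

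**Figure D4:**
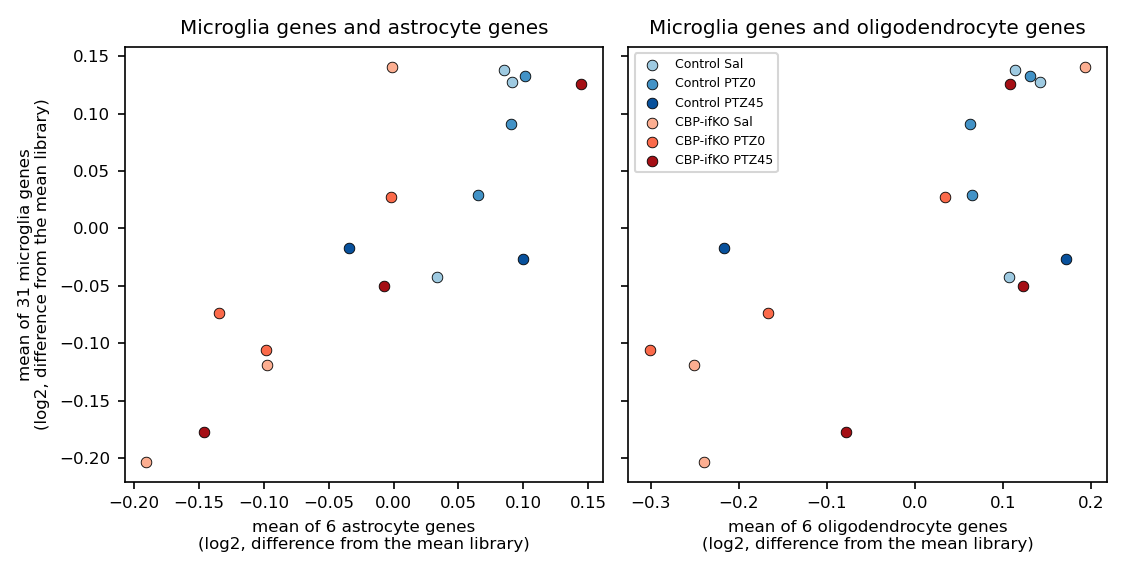
Each point is 1 of the 17 libraries, with the mean of the 31 microglia genes on the vertical axis and the mean of 6 astrocyte (left) or 6 oligodendrocyte genes (right) on the horizontal axis, all on the log2 scale as differences from the average library. Libraries low in astrocyte genes are low in microglia genes (r = 0.852), among them CBP-ifKO Sal replicate 1 at -0.19 and -0.20.

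A week after kindling no member differed past the test. In controls, compared within 1 lane, 0 of 31 members passed the DESeq2 test, against 0.00843% of all genes, and the members' median log2 fold change was 0.00, with 14 above 0 and 17 below. No member had an unadjusted p under 0.05, which 0.581% of all genes had. The 95% interval lay within 2-fold for 30 members, the exception being Spi1, and within 1.5-fold for 24. Cd68, a lysosomal glycoprotein used as a sign of phagocytic activity, lay at 57.7, 39.4 and 40.7 normalized counts in Control Sal and at 64.1, 58.6 and 60.0 in Control PTZ0. All kindled values of Cd68 were above those of Sal, and the difference of 0.39 (SE 0.27, DESeq2 adjusted p = 1) did not pass the test. P2ry13 was the other member higher without overlap, and Cd33 and Mpeg1 were lower without overlap, 4 members in all, against 7.48% of all genes. In CBP-ifKOs, where Sal and PTZ0 came from different lanes, 0 members were called, against 0.0112% of all genes. Their median was 0.01 (from -0.03 to 0.17 with single libraries left out). The intervals there lay within 2-fold for 30 members and within 1.5-fold for 18. The difference between genotypes in the effect of kindling passed the test for 0 members and for 0% of all genes. Its median over the members was 0.03 (from -0.04 to 0.18 with single libraries left out).

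The last PTZ injection, given 45 min before the hippocampus was taken, raised Fos but moved no member past the test. In kindled controls 0 of 31 members were called, against 1.25% of all genes, and the median of the members was -0.14 with 20 below 0. C1qc was at 237, 274 and 225 normalized counts in PTZ0 and at 181 and 189 in PTZ45, a difference of -0.41 (SE 0.17, DESeq2 adjusted p = 0.373). Csf1r, at -0.19 (SE 0.09, adjusted p = 0.560), and the integrin chain Itgb5, at -0.26 (SE 0.13, adjusted p = 0.597), were the other members with an unadjusted p under 0.05, which 8.3% of all genes had. The PTZ45 and PTZ0 controls did not overlap for 11 members, 9 lower and 2 higher, against 33.4% of all genes in this comparison of 2 libraries with 3. These libraries came from different lanes. In kindled CBP-ifKOs, compared within 1 lane, 0 members were called, against 0.0872% of all genes, the median was 0.02 (from -0.07 to 0.09 with single libraries left out) and the groups overlapped for all 31, while 10.3% of all genes did not overlap. C1qc there was -0.20 (SE 0.18) and Csf1r was 0.02 (SE 0.09). PTZ45 against Sal called 0 members in controls, where 1.17% of all genes passed, and 0 in CBP-ifKOs, where 0.294% did. In these controls C1qc was at -0.47 (SE 0.18, adjusted p = 0.317) and the homeostatic marker Tmem119 at -0.41 (SE 0.20, adjusted p = 0.603). Comparisons that use Control PTZ45, or the same Sal or PTZ0 libraries, share those libraries and do not repeat each other independently. The genotype by PTZ45 interaction called 0 members, against 0.329% of all genes, and 23 of the 31 interaction terms were above 0, with a median of 0.15. That median was 0.04 without CBP-ifKO PTZ45 replicate 3, 0.05 without CBP-ifKO Sal replicate 1, 0.06 without Control Sal replicate 2 and 0.25 without CBP-ifKO Sal replicate 3.

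Genotype was also compared within each treatment. In Sal 0 members were called, against 2.04% of all genes, and 24 of 31 were below 0 with a median of -0.14 (-0.05 without CBP-ifKO Sal replicate 1). Gpr34 had the lowest adjusted p there, 0.385 by DESeq2, at -0.38 (SE 0.18), with 214, 176 and 170 normalized counts in controls against 146, 125 and 157 in CBP-ifKOs. These values did not overlap, as was the case for 2 members in Sal, Gpr34 and Irf8, and for 21.2% of all genes. Without CBP-ifKO Sal replicate 3 the P2ry12 difference passed, at -0.40 (DESeq2 adjusted p = 0.0395), and the median became -0.26. In that fit 620 of 11307 genes were called. In PTZ0 0 members were called, against 6.68% of all genes, with a median of -0.13 (-0.20 and -0.08 when replicates 2 and 3 of CBP-ifKO PTZ0 were dropped in turn), and in PTZ45 0 were called, against 3.07%, with a median of 0.01 (from -0.09 to 0.09 with single libraries left out). The members that did not overlap between genotypes in PTZ0 were 7 lower and 1 higher, against 15.2% and 13.6% of all genes.

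**Figure D5:**
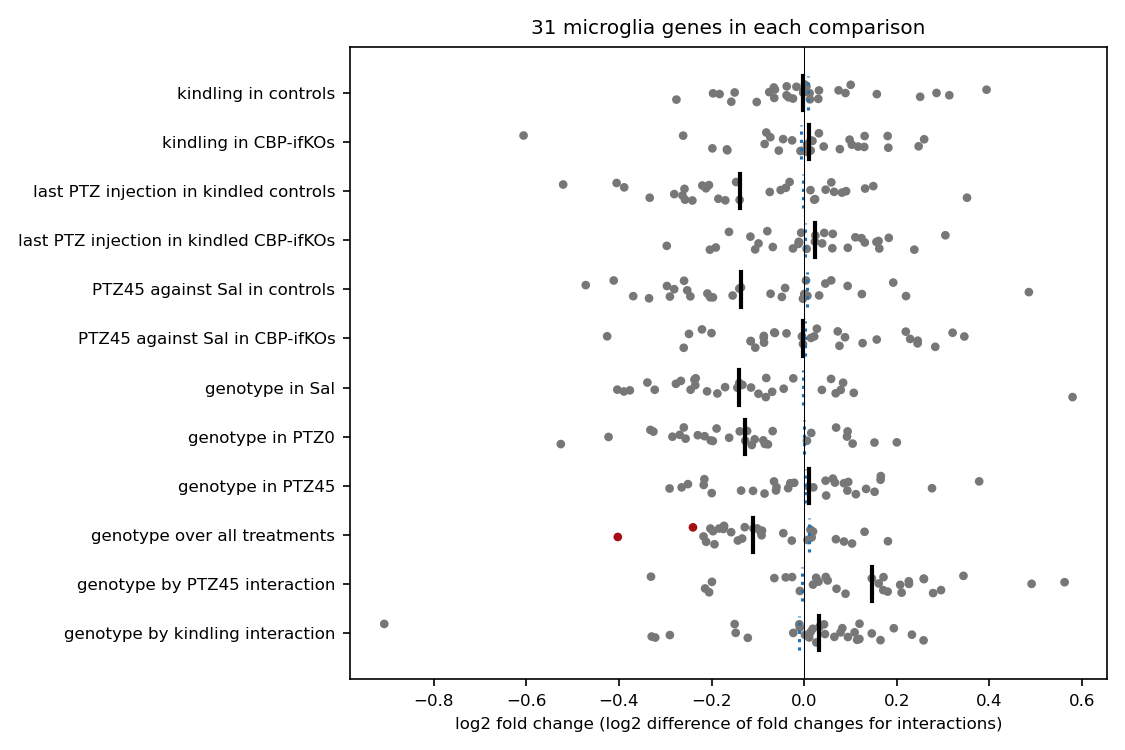
Each point is 1 of the 31 microglia genes in 1 of 12 comparisons, placed by its log2 fold change (for the 2 interactions, the difference between log2 fold changes), with black bars at the members' median and dotted blue bars at the median of all genes. Red points passed the test, which only Irf8 and Olfml3 did, in the comparison of genotype over all treatments, and the members' medians lie between -0.14 and 0.15.

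The signals that neurons and other cells send to these receptors were examined through a list of 14 ligands, receptors and effectors. The list was drawn up with earlier results of these data known, so its counts beside the shares of all genes are a description. Over all treatments 6 of the 14 were lower in CBP-ifKOs and 0 were higher, against 11.5% and 7.76% of all genes. Il34, the ligand of Csf1r made mainly by forebrain neurons, fell by 0.31 (SE 0.07, DESeq2 adjusted p = 0.000283). It ranged from 248 to 298 normalized counts in Control Sal, from 275.2 to 311 in Control PTZ0 and from 221 to 271 in Control PTZ45, and from 197 to 258, from 215 to 226 and from 195 to 224 in the same treatments of CBP-ifKOs. The genotypes overlapped in Sal and in PTZ45, while in PTZ0 every CBP-ifKO value was below every control. Csf1, the other ligand of Csf1r, was not called, with 261 to 306 in all control libraries and 286 to 365 in CBP-ifKOs. Smad3, a transducer of transforming growth factor beta, fell by 0.33 (SE 0.04, adjusted p = 7.53e-12), and its receptor Tgfbr1 fell by 0.21 (SE 0.05, adjusted p = 0.000134). Sirpa, which receives the CD47 signal that restrains phagocytosis and is also expressed by neurons, fell by 0.20 (SE 0.03, adjusted p = 2.01e-11), and Cx3cl1, the neuronal ligand of Cx3cr1, fell by 0.16 (SE 0.06, adjusted p = 0.0235). Tgfb1, at a mean of 19.9 normalized counts, was the other gene called. Csf1r, the receptor of Il34, and Cx3cr1, the receptor of Cx3cl1, did not pass the test. Csf1r passed when CBP-ifKO Sal replicate 3 was left out (-0.14, DESeq2 adjusted p = 0.0456), in a fit that called 3628 of 17818 genes. Csf1, Sirpa, Cx3cl1 and Tgfb1 are named after their values were seen. With lane as a term none of Il34, Smad3, Tgfbr1, Sirpa and Cx3cl1 passed, with differences from -0.12 to -0.25. That fit called 131 of 16404 genes. Leaving out 1 library kept the calls of Il34, Smad3, Tgfbr1 and Sirpa in 17 of 17 fits and that of Cx3cl1 in 12, which was lost when replicate 3 of Control Sal, replicate 1 of CBP-ifKO Sal, Control PTZ0 or Control PTZ45, or replicate 3 of CBP-ifKO PTZ0 was dropped, with adjusted p up to 0.0938. The call on Cx3cl1 was also lost with the GC correction (-0.11, adjusted p = 0.0541) and without the 5 libraries rich in Ttr (-0.11, adjusted p = 0.321). Of the 14 signals, 0 were called for kindling or for the last injection.

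Inflammatory genes were followed with a list of 20, also drawn up with earlier results of these data known. Their cytokines had few reads, with mean normalized counts of 3.41 for Il1b, 1.04 for Tnf, 1.29 for Il6, 1.31 for Ccl2 and 3.46 for Ccl3, of which Il1b and Ccl3 reached 11.5 and 12.4 in single libraries, and 9.50 for Il1a. These cytokines are named for their low level and not by a test. After the last injection 2 of the 20, of which 13 had an adjusted p, rose in kindled controls, against 1.25% of all genes called in either direction. The list had 17 genes above 0, with a median of 0.31 over those with an adjusted p, and 5 with an unadjusted p under 0.05, against 8.3% of all genes. In the same comparison 5 of 5 red blood cell genes were above 0, with a median of 0.67, and Hbb-bs was called (0.78, SE 0.12, DESeq2 adjusted p = 5.16e-09). In kindled CBP-ifKOs 5 of 5 were above 0 after the last injection, with a median of 0.50, and 0 were called. The part of blood in the values of the inflammatory list was not tested. Ptgs2 (cyclooxygenase-2), an activity-induced gene of excitatory neurons as well as an inflammatory gene, was at 418 to 460 in Control PTZ0 and at 1714 and 2274 in Control PTZ45, and rose by 2.19 (SE 0.12, DESeq2 adjusted p = 4.28e-77). Nfkbiz, a regulator of NF-kappaB, was at 154 to 167 and at 236 and 277, and rose by 0.69 (SE 0.17, adjusted p = 0.00575), a call that was lost without Control PTZ0 replicate 1 (adjusted p = 0.317) or Control PTZ0 replicate 3 (0.168), while without Control PTZ45 replicate 1 Nfkbiz had no adjusted p. In kindled CBP-ifKOs, compared within 1 lane, the last injection called 0 of the 20 genes, against 0.0872% of all genes, with Ptgs2 from 329 to 349 in PTZ0 and from 422 to 454 in PTZ45. Against CBP-ifKO Sal, which came from another lane and ranged from 276 to 295, Ptgs2 in CBP-ifKO PTZ45 was higher by 0.59 (SE 0.13, DESeq2 adjusted p = 0.00239). This call was lost without CBP-ifKO Sal replicate 2 (0.112), CBP-ifKO PTZ45 replicate 1 (0.108) or CBP-ifKO PTZ45 replicate 3 (0.0826), with the edgeR test (0.101) and with the GC correction (0.0981). The genotype by PTZ45 interaction for Ptgs2, which rests on PTZ45 against Sal, was -1.77 (SE 0.17, adjusted p = 6.59e-22).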

How the data were processed

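RNA of whole hippocampus was sequenced as single-end reads of 50 bases. According to the study's methods and the submitters' processing notes, reads were trimmed with Trim Galore 0.6.4, checked with FastQC 0.11.8 and aligned to GRCm38 (mm10) with STAR 2.6.1, those with a mapping quality over 10 were kept, and counts per gene were taken over Ensembl 99 exons with Rsubread. The authors deposited these raw counts with a gene length for each of 55471 genes, and used DESeq2 1.30.1. The table has 1 column that matched no sample and was not used. Of the gene IDs 99.57% were found in GENCODE M21, which gave positions.

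Counts were scaled by DESeq2 size factors (DESeq2 1.42.0, R 4.3.3) and are called normalized counts. Groups were compared with the two-sided Wald test over all genes with at least 1 count, on the libraries of both groups (all 17 for genotype over all treatments, with treatment as a term), with Benjamini-Hochberg adjustment and a threshold of 0.05. An adjusted p that independent filtering withheld was kept as missing, which concerned at most 4 of the 31 members (Aif1, Fcer1g, Irf8 and Spi1, for genotype in PTZ0). Fold changes are log2 values with their SE. A cell type mean is the mean over its genes of log2(normalized count + 1), less each gene's average (genes averaging under 5 left out). Alternatives were edgeR 4.0.16 (quasi-likelihood), TMM factors, a filter of 10 counts in 2 libraries, 1 fit of all 17 libraries, a GC correction (loess, span 0.5), replicate blocks, lane as a term and each library left out. The fits were tested on simulated data, where for genotype over all treatments the share of false calls was above the threshold, so an adjusted p close to the threshold there is less certain than its value.

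The members and gene lists were chosen with earlier results of these data known. Values are given in every library for members called in a comparison, for the 6 of highest level per length and, to complete the C1q chains, for C1qc. From other lists, called genes averaging 50 or more normalized counts were named, at most 3 per direction by size of change. Mrc1, Folr2, Ccr2, Ly6c2, Nkg7 and Fcrls were not called and are named for their level. Further genes are marked as named after their values were seen. Crebbp and Fos checked the labels. Replicates are taken as separate mice, which the methods state for the saline-treated animals. The DESeq2 p-values set the difference between groups against the spread between replicate libraries. Where lanes differ with the groups, that difference includes lane. Permutation tests of correlations were two-sided with 100000 draws (Python, numpy). They exchanged libraries across genotypes, treatments and lanes, so differences shared by whole groups count in their p-values.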

Additional observations from a re-analysis of the deposited data

Results flagged for a closer look

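Values of the 31 genes were examined for single libraries standing apart within each genotype, over all treatments, in 62 groups of 8 or 9 libraries. By Dixon's 95% limit 4 groups held such a library, and chance flags about 1 in 20 groups. Control PTZ45 replicate 2 had the highest P2ry13 value of the controls, 237 normalized counts, with the next at 198, and the lowest Irf8 value of the controls, 36.9, with the next at 46.5. Without this library the genotype difference in Irf8 was -0.46 (DESeq2 adjusted p = 0.0176). Control PTZ0 replicate 1 had the highest Fcer1g value, 45.6, with the next at 37.1. Control Sal replicate 2 had the highest Cd33 value, 116, with the next at 95.8.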

How the results depend on the processing

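The count of called members for genotype over all treatments, the only comparison with calls, moved by over 1.5 times in 14 of its 24 alternatives. In the other 11 comparisons the count was 0, and it became 1 in 1 setting, for genotype in Sal. For genotype over all treatments the main fit called 19.3% of all genes. The 2 calls became 1 with the GC correction (Gpr34), where 3677 of 19443 genes were called. They became 0 with replicate blocks (3223 of 17186 genes) and 0 with lane as a term (131 of 16404 genes). They became 1 without the 5 libraries with over 1000 normalized counts of Ttr (Irf8, -0.54, adjusted p = 0.0395). That last alternative was chosen after seeing the data and called 1870 of 15846 genes. With edgeR 2 members were called for genotype over all treatments (Irf8 and Inpp5d), where 3761 of 19485 genes were, and 0 in each other comparison. Leaving out 1 library gave 0 to 4 calls for genotype over all treatments, where 3141 to 3690 genes were called in all, and 0 to 1 for genotype in Sal. Besides Irf8 and Olfml3 these calls were of Inpp5d, Gpr34, C1qc or Csf1r, and in Sal of P2ry12. Lane as a term turned Olfml3 to 0.15, and the cause was not tested. In that design, lane 3 holds controls and lane 5 CBP-ifKOs alone, so few contrasts remain to tell lane from genotype. The genotype value of that fit also takes the effect of treatment to be equal in both genotypes. The replicate spread of the members' mean (SD 0.110) was as large as most of their medians. Without single libraries the median ranged from -0.033 to 0.167 for kindling in CBP-ifKOs, from -0.0798 to 0.157 for PTZ45 against Sal in CBP-ifKOs, from -0.264 to -0.0517 for genotype in Sal, from -0.0928 to 0.0911 for genotype in PTZ45, from -0.0666 to 0.0903 for the last injection in CBP-ifKOs, from -0.155 to -0.0963 for that in controls, from -0.0675 to 0.0369 for kindling in controls, from -0.0404 to 0.183 for the kindling interaction, from 0.0367 to 0.246 for the PTZ45 interaction, from -0.142 to -0.0707 for genotype over all treatments, from -0.198 to -0.0822 for genotype in PTZ0 and from -0.139 to -0.0347 for PTZ45 against Sal in controls, the last value being without Control PTZ45 replicate 1 and that without Control Sal replicate 1 being -0.0708. The GC correction took the median of that comparison to -0.0907, that of PTZ45 against Sal in CBP-ifKOs to 0.0919 and those of the last injection to 0.0649 in CBP-ifKOs and -0.0977 in controls. Replicate blocks took the median of the PTZ45 interaction to 0.0699 and that of genotype in PTZ45 to -0.0997. Replicate numbers did not pair the samples: over 24 pairs of same-numbered libraries the correlation of deviations ran from -0.523 to 0.479, with 8 over 0.1. With replicate blocks Irf8 was at -0.39 (adjusted p = 0.0586), Olfml3 at -0.25 (0.0565) and Nfkbiz after the last injection at 0.67 (1). Depth limits Spi1 most, with 8 reads in its shallowest library.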

Other observations

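Of 30 further microglial genes, among them Fcrls (mean 154 normalized counts), 0 were called by DESeq2 in any of the 12 comparisons, which called from 0% to 19.3% of all genes. Many of them were too low for an adjusted p in some comparisons, and 13 of the 30 had one for genotype in PTZ0, 21 in Sal and 22 in PTZ45. There were 0 to 2 at an unadjusted p under 0.05 in each comparison, and for genotype over all treatments the median of the 27 with an adjusted p was -0.09 and 10 of the 30 were above 0. The mean over these genes correlated with that of the 31 with r = 0.701 and rho = 0.701 (permutation p = 0.00202 and 0.0026, adjusted p = 0.00303 and 0.00468). That r was 0.76 without the 2 farthest libraries, 0.425 in lane 3, 0.744 in lane 5 and 0.782 after the group means were taken off.

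Of 18 genes that rise in disease-associated microglia, 2 were lower in CBP-ifKOs over all treatments, Gpnmb at -0.59 (mean 39.8 normalized counts) and Apoe, which astrocytes also make, at -0.20. The lysosomal proteases Ctsl and Ctsz were higher, at 0.22 and 0.25. Of 15 complement genes beyond the C1q chains, C4b fell by 0.25 (SE 0.07, DESeq2 adjusted p = 0.00607) and Csmd1, an inhibitor of complement in neurons, fell by 0.16. Of 12 interferon response genes, Rtp4 was lower (-0.77, mean 16.3 normalized counts) and Irf9 higher (0.24). Gpnmb and Rtp4 are named after their values were seen. Of the inflammatory list, Il1r1 was higher in CBP-ifKOs (0.27) and Ptgs2 lower (-0.94), the Ptgs2 difference being -0.44 in Sal, -0.37 in PTZ0 and -2.20 in PTZ45. These counts stand against 11.5% of all genes lower and 7.76% higher.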
